A study of Oryza sativa with 12 samples.

Results

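Monosaccharide transporters move glucose, fructose and related hexoses across membranes, and 7 rice genes of this kind were followed in peduncles around heading: *MST3* (LOC_Os07g01560), *MST4* (LOC_Os03g11900), *MST5* (LOC_Os08g08070), *MST6* (LOC_Os07g37320), *MST8* (LOC_Os01g38670), *TMT1* (LOC_Os10g39440) and *TMT2* (LOC_Os02g13560). They were taken by locus identifier out of 53,380 loci with a value, and each is represented by its most abundant assembled row. *MST6* had 3 rows and each of the others had 1. Of these 7 genes, 5 reached 1 FPKM (a fragment count divided by transcript length and by the mapped fragments of the library) in at least 1 group, as did 19,126 loci in all.

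The peduncle is the uppermost internode of the stem, which carries the panicle. Peduncles of field-grown, untreated *indica* plants were sequenced in 4 groups of 3 libraries, namely non-elongating peduncles after heading (NP) and elongating peduncles before heading (EP) of Swarna, a high-yielding cultivar, and NP and EP of Pokkali, a taller and salinity-tolerant landrace. Each group is represented by 1 FPKM value per gene in which its 3 libraries are already combined, so the spread between libraries is not known, no test could be run, and every difference given here is a ratio of 2 group values. The number of plants behind a library is not given in the sources used here, and a peduncle holds many cell types, so more cells of a type and more RNA per cell cannot be told apart.

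Sugar leaves the stem and reaches the panicle as sucrose in the phloem. Where sucrose is split in the cell wall by invertases, the resulting hexoses enter cells through plasma membrane symporters that use the proton gradient, and the MST proteins belong to this family. TMT proteins sit in the membrane of the vacuole (the tonoplast) and, as known best from Arabidopsis, load sugars into it in exchange for protons. Inside the cell, hexokinases phosphorylate the hexoses.

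Stem marker genes were detected in all groups, with 3 of the 5 at low levels in Swarna NP. The class I homeobox genes *OSH1* and *OSH15* and the secondary wall cellulose synthase genes *CESA4*, *CESA7* and *CESA9* together summed to 272 FPKM in Swarna NP, 240 in Swarna EP, 368 in Pokkali NP and 651 in Pokkali EP, with no gene of the 5 below 4.27 FPKM. The 3 cellulose synthase genes were at 4.27 to 5.94 FPKM in Swarna NP, against 49.6 to 68.1 in Swarna EP, while *OSH1* and *OSH15* were higher in Swarna NP than in Swarna EP. The part of these marker differences in the values below was not tested. The 7 anther and tapetum markers that had a row of their own summed to 3.48 FPKM in Swarna NP, 3.79 in Swarna EP, 5.49 in Pokkali NP and 3.74 in Pokkali EP. Of these 7, *TDR*, *PTC1*, *OsC6* and *EAT1* stayed below 1 FPKM in all groups, *CYP704B2*, *WDA1* and *UDT1* reached it in at least 1, and *OsC6* was listed at 0 in both Swarna groups. FPKM columns of the 53,380 loci summed to 609,663 in Swarna NP, 330,514 in Swarna EP, 502,800 in Pokkali NP and 419,002 in Pokkali EP. Scaling the columns to equal sums moved the table-wide median of the log2 ratios by −0.77 for NP to EP in Swarna and −0.18 in Pokkali, and by −0.20 for Swarna to Pokkali at NP and 0.28 at EP.

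The 3 plasma membrane genes *MST3*, *MST4* and *MST6* were more abundant in NP than in EP in both cultivars, and *MST4* and *MST3* by far more so in Swarna. The tonoplast genes *TMT1* and *TMT2* were less abundant in Swarna than in Pokkali at both stages. *MST5* and *MST8* were close to 0 everywhere. Ratios below are on log2 of FPKM plus 0.5, so that 1 or more in size is a difference of at least 2-fold, and positive values are higher in NP than in EP or higher in Swarna than in Pokkali.

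**Figure D1:**
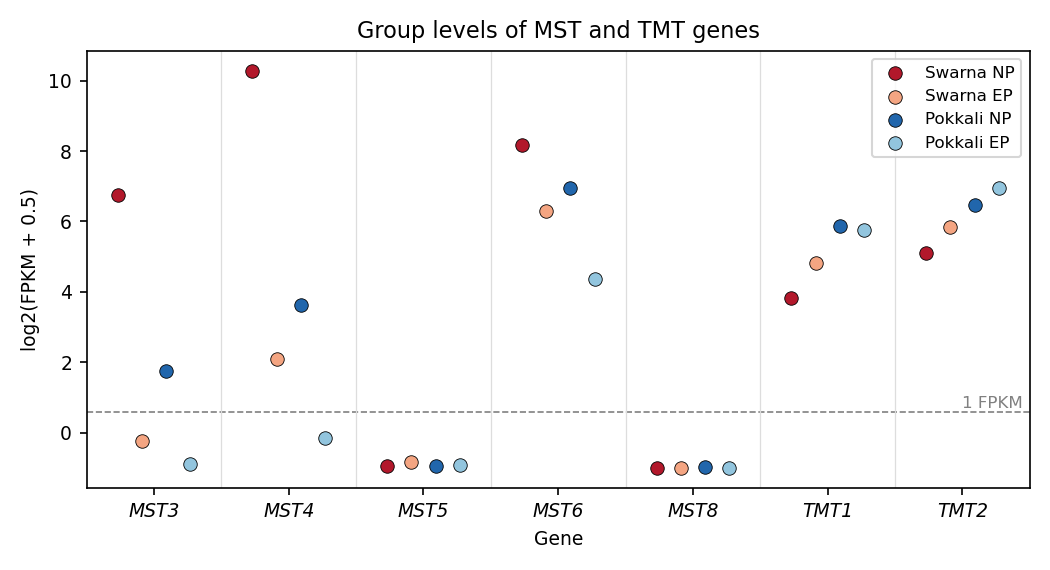
Levels of the 7 genes as log2 of FPKM plus 0.5, 1 point per group and gene, with the dashed line at 1 FPKM. *MST4* reached 1245 FPKM in Swarna NP, whereas all values of *MST5* and *MST8* lie at the bottom of the scale.

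Rice MST4 takes up several monosaccharides and was described from developing grains. The assembled locus of *MST4* lies on chromosome 3 from 6227228 to 6238297, a span that it shares with a neighbouring gene. Its level was 1245 FPKM in Swarna NP, against 3.81 in Swarna EP. In Pokkali it was 11.97 FPKM in NP and 0.403 in EP. Both NP values were above both EP values, and the Swarna NP value stood far above the other 3. As a ratio of FPKM without the added constant, NP was 327-fold EP in Swarna and 29.7-fold in Pokkali. With the constant added, the log2 ratio was 8.18 in Swarna, place 13 from the highest among the 19,126 genes, and 3.79 in Pokkali, place 162. The Pokkali EP value is below 1 FPKM, and over the processing alternatives the ratio ranged between 3.21 and 4.58 in Pokkali and between 7.34 and 8.32 in Swarna.

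Among all loci ordered by FPKM, *MST4* took place 31 in Swarna NP and place 11716 in Swarna EP. In Pokkali it took place 6676 in NP and 18267 in EP. It was the most abundant of the 7 genes in Swarna NP and the fourth in each of the other groups.

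*MST3* encodes a proton-coupled monosaccharide symporter that was first described from vegetative organs. Its locus was assembled on chromosome 7 from 343926 to 353686, again in a span with a neighbour. The level of *MST3* was 107 FPKM in Swarna NP, against 0.350 in Swarna EP. For Pokkali the values were 2.87 FPKM in NP and 0.0410 in EP. Thus *MST3* passed 1 FPKM after heading in each cultivar but not before it. Its log2 ratio took place 25 of the 19,126 genes in Swarna, at 6.99, and place 513 in Pokkali, at 2.64. Since the EP values are low, these sizes depend on the constant added, and range between 6.32 and 7.90 in Swarna and between 1.89 and 4.40 in Pokkali over the processing alternatives.

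The third gene of this type, *MST6*, encodes a transporter of hexoses and pentoses. It lies on chromosome 7 from 22353094 to 22355806. Its level was 286 FPKM in Swarna NP and 78.8 in Swarna EP, and 122 FPKM in Pokkali NP and 20.2 in Pokkali EP. In contrast to *MST3* and *MST4*, *MST6* was well above 1 FPKM in all groups. NP was 3.63-fold EP in Swarna and 6.05-fold in Pokkali, with log2 ratios of 1.85 and 2.57. The Swarna ratio depends on the scaling of the columns. It was 0.97 with columns of equal sums, where the median of all genes moved by −0.77, and 0.91 after quantile normalization, where that median moved by −0.12. Relative to these movements it was 1.74 and 1.02.

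*MST5* and *MST8* have been described from anthers and pollen. In the peduncle, *MST5* (chromosome 8 from 4581432 to 4583491) had 0.0147 FPKM in Swarna NP and 0.0601 in Swarna EP. In Pokkali its values were 0.0226 FPKM in NP and 0.0307 in EP. *MST8* (chromosome 1 from 21719861 to 21722141) was listed at 0 in 3 groups and at 0.00860 FPKM in Pokkali NP. Neither gene approached 1 FPKM, and no fold is drawn from these values.

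TMT1 and TMT2 are tonoplast monosaccharide transporters. The locus of *TMT1* spans positions 21048271 to 21052794 of chromosome 10. It had 13.6 FPKM in Swarna NP, against 27.8 in Swarna EP. In Pokkali it had 57.7 FPKM in NP and 53.4 in EP. The NP value was the lowest of the 4 in Swarna and the highest of the 4 in Pokkali. The log2 ratio of −1.01 in Swarna lay at the 2-fold limit and was −0.98 with a constant of 1, −1.87 with columns of equal sums and −1.61 after quantile normalization. Relative to the movement of the median of all genes, these last values were −1.10 and −1.49. For Pokkali it was 0.11, and −0.15 with columns of equal sums and −0.03 after quantile normalization, so its sign is not fixed.

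*TMT2*, on chromosome 2 from 7272122 to 7278272, was the more abundant tonoplast gene in every group. It had 34.1 FPKM in Swarna NP and 57.3 in Swarna EP, and 87.7 FPKM in Pokkali NP and 124 in Pokkali EP. NP was below EP in both cultivars, at −0.74 (Swarna) and −0.50 (Pokkali) on the log2 scale, neither of which reached 2-fold. With columns of equal sums the Swarna ratio was −1.61 and after quantile normalization −1.63, or −0.85 and −1.51 relative to the movement of the median of all genes.

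Counted against the whole table, 3 of the 7 genes (*MST3*, *MST4* and *MST6*) were at least 2-fold higher in NP in Swarna, where 26.6% of the 19,126 genes were. One, *TMT1*, was at least 2-fold lower in NP, as were 25.4% of the genes. In either direction this makes 4 of 7, where 51.9% of the 19,126 genes passed. These shares cover genes of at least 1 FPKM, which *MST5* and *MST8* are not. Over all 53,380 loci, 19.7% passed 2-fold in Swarna, with 10.1% of loci higher and 9.65% lower in NP.

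Scaling to equal sums and quantile normalization each moved the Swarna count to 2 higher (*MST3* and *MST4*) and 2 lower (*TMT1* and *TMT2*). With columns of equal sums, 15.4% of the 19,126 genes were then higher and 42.8% lower in Swarna NP, and after quantile normalization 23.6% and 24.9%. In Pokkali, *MST3*, *MST4* and *MST6* again passed 2-fold towards NP, against 15.9% of all genes. None of the 7 was at least 2-fold lower there, against 14.8%, and in either direction 30.7% of the genes passed, or 11.6% of all 53,380 loci. All 3 were higher in NP in both cultivars, a condition that 10.8% of the genes met, and none of the 7 was lower in both, against 11.0%. Over the 7 genes the median of the log2 ratios was 0.00 for Swarna and 0.11 for Pokkali, beside 0.03 and 0.05 over the 19,126 genes and 0 in both cultivars over all loci. *MST5* and *MST8* enter this median with ratios near 0. Over the 5 genes that passed the filter it was 1.85 for Swarna and 2.57 for Pokkali, the ratio of *MST6* in both, a description only since the filter keeps genes that are high in 1 group. The shares of higher and lower genes move with the scaling. With columns of equal sums, genes higher in NP made up 26.4% of the genes past 2-fold in Swarna, in place of 51.2%, and 39.1% in Pokkali, in place of 51.8%.

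**Figure D2:**
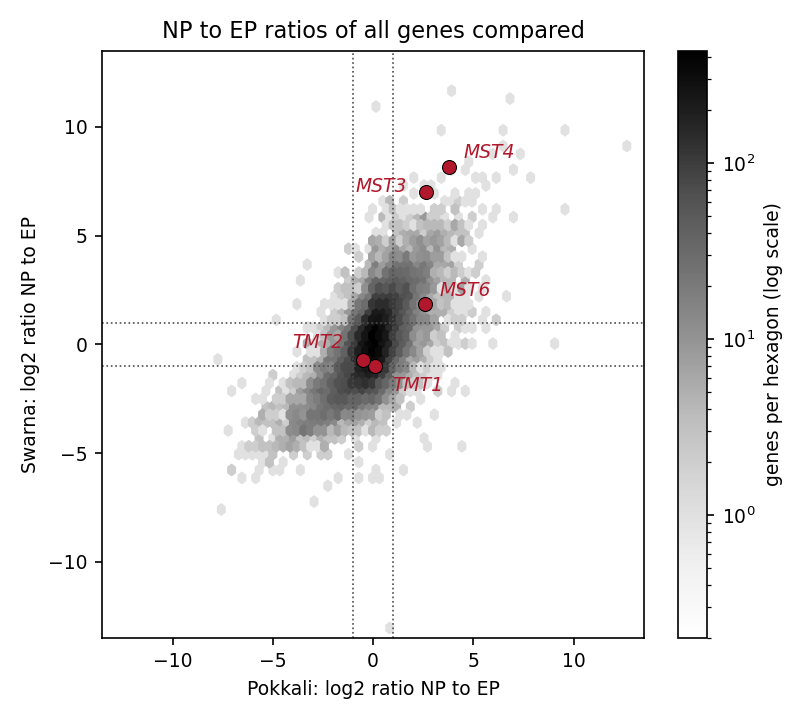
NP to EP log2 ratios of 19,126 genes in Swarna (vertical axis) against Pokkali (horizontal axis), as the number of genes per hexagon on a log grey scale, with dotted lines at 2-fold and 5 genes of the family in red. *MST4* (8.18 and 3.79) and *MST3* (6.99 and 2.64) lie at the upper edge, and *TMT1* and *TMT2* near the centre.

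Swarna and Pokkali were next compared within each stage. At NP, *MST4* was 104-fold, *MST3* 37.4-fold and *MST6* 2.34-fold higher in Swarna, as ratios of FPKM. On the log2 scale these differences were 6.64, 5.0 and 1.22. Ordered by the log2 ratio of Swarna NP to Pokkali NP, *MST4* took place 7 and *MST3* place 61 of the 19,126 genes. For *MST6* this ratio was 0.95 with columns of equal sums and 0.89 after quantile normalization, below 2-fold in both. *TMT1* and *TMT2* differed in the opposite direction, with log2 ratios of −2.05 and −1.35, so that the Pokkali NP level was 4.25-fold and 2.57-fold that of Swarna NP. Thus 3 of the 7 genes were at least 2-fold higher and 2 at least 2-fold lower in Swarna NP, where 20.4% and 20.3% of all genes were. The 5 genes past 2-fold in either direction compare with 40.7% of the 19,126 genes and 15.6% of all loci.

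At EP, *MST4* had a log2 ratio of Swarna to Pokkali of 2.25 and *MST6* of 1.94, and 7.49% of all genes were at least 2-fold higher in Swarna EP. *MST3* had 0.65, both of its EP values being below 1 FPKM, and 1.67 with a constant of 0.1. The ratio was −1.11 for *TMT2* and −0.93 for *TMT1*, and 9.92% of all genes were at least 2-fold lower in Swarna EP. For *TMT2* it was −0.77 with columns of equal sums and −0.64 after quantile normalization, so *TMT2* passed 2-fold only on the other scales. In either direction 3 of the 7 genes passed 2-fold at EP, where 17.4% of the 19,126 genes and 6.84% of all loci did. Without such scaling, *MST4* and *MST6* were thus at least 2-fold higher in Swarna at both stages, as were 3.89% of the genes. *TMT2* was at least 2-fold lower at both, as were 4.99%. With columns of equal sums or quantile normalization, only *MST4* of these genes passed 2-fold at both stages.

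**Figure D3:**
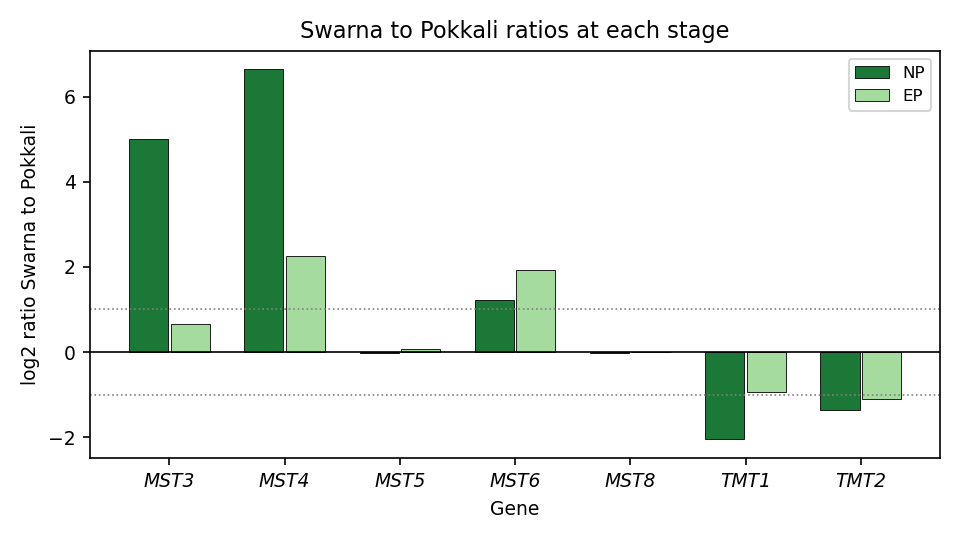
Log2 ratio of Swarna to Pokkali for each gene, with 1 bar for NP and 1 for EP and dotted lines at 2-fold. The bars of *MST3*, *MST4* and *MST6* point up and those of *TMT1* and *TMT2* down at both stages, and the tallest is *MST4* at NP (6.64).

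The NP to EP log2 ratio itself was larger in Swarna than in Pokkali by 4.39 for *MST4* and 4.35 for *MST3*, and 21.9% of all genes had one larger by at least 1. Among the 19,126 genes these differences took places 66 and 70 from the highest. Both depend on the constant added, since the Pokkali EP values are below 1 FPKM. With a constant of 0.1 they were 3.73 for *MST4* and 3.50 for *MST3*. Without a constant, NP of *MST3* was 306-fold EP in Swarna and 69.9-fold in Pokkali, the latter resting on an EP value of 0.0410 FPKM. With columns of equal sums the differences were 3.73 for *MST4* and 3.84 for *MST3*, and after quantile normalization 4.23 and 4.33. Which of the 2 genes had the larger difference is therefore not fixed. *TMT1* had a difference of −1.12, and 19.2% of the genes had one of −1 or less. For *MST6* the difference was −0.72, but −1.34 with columns of equal sums and −1.56 after quantile normalization. For *TMT2* it was −0.24, and −0.85 and −0.99 under these scalings. Equal sums placed the median difference of all genes at −0.47, in place of 0.07. These differences between ratios were not tested.

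Because FPKM is scaled to transcript length, levels of different genes can be set beside each other and summed. The 7 genes together had 1686 FPKM in Swarna NP, against 168 in Swarna EP, a ratio of 10.03. This ratio was 5.44 with columns of equal sums and 5.45 after quantile normalization. In Pokkali they had 282 FPKM in NP and 198 in EP, a ratio of 1.42, and 1.19 and 1.301 under these scalings. Without *MST4* the sums were 441 FPKM in Swarna NP and 164 in Swarna EP, a ratio of 2.68, so that this gene carried most of the Swarna difference. For Pokkali the ratio without *MST4* was 1.37.

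**Figure D4:**
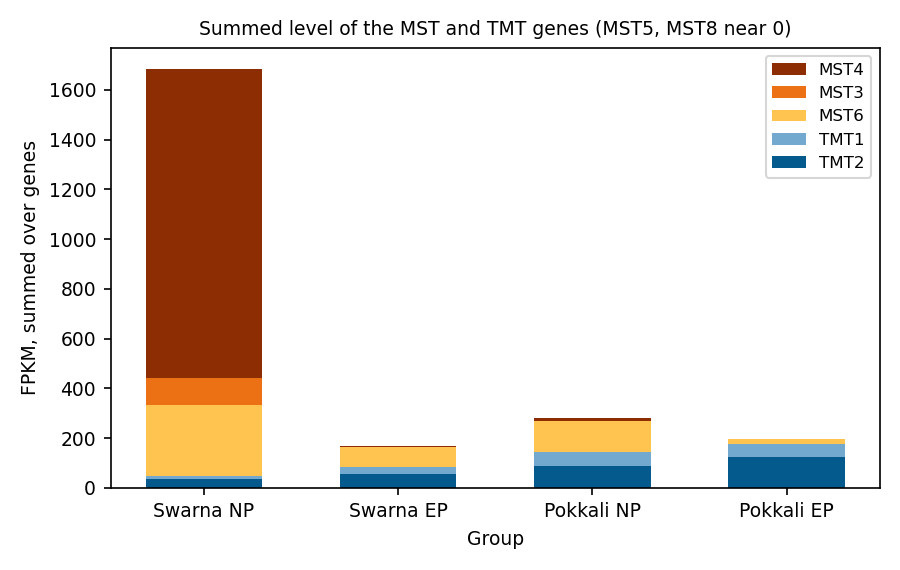
FPKM summed over the genes in each group, stacked by gene on a linear axis from 0. *MST4* fills 73.9% of the Swarna NP bar, and *TMT2* 62.6% of the Pokkali EP bar.

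The make-up of this sum differed between the groups. *MST4* took 73.9% of it in Swarna NP, *MST6* 17.0% and *MST3* 6.36%. In Swarna EP, *MST6* took 46.9% and *TMT2* 34.1%. A similar make-up was seen in Pokkali NP, with 43.2% for *MST6* and 31.1% for *TMT2*. In Pokkali EP, *TMT2* took 62.6% and *TMT1* 27.0%, and *MST6* only 10.2%. The order from high to low was *MST4*, *MST6*, *MST3*, *TMT2* and *TMT1* in Swarna NP. It was *MST6*, *TMT2*, *TMT1*, *MST4* and *MST3* in both Swarna EP and Pokkali NP, and *TMT2*, *TMT1*, *MST6*, *MST4* and *MST3* in Pokkali EP. Without replicates it cannot be said which neighbours in these orders lie within their spread.

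Grouped by membrane, a grouping made after the values were seen, the 5 *MST* genes summed to 1638 FPKM in Swarna NP and 83.0 in Swarna EP. In Pokkali they summed to 137 FPKM in NP and 20.7 in EP. The 2 *TMT* genes summed to 47.6 FPKM in Swarna NP and 85.0 in Swarna EP, and to 145 FPKM in Pokkali NP and 178 in Pokkali EP. The *MST* sum was therefore 34.4 times the *TMT* sum in Swarna NP, 0.976 times in Swarna EP, 0.942 times in Pokkali NP and 0.116 times in Pokkali EP. This quotient is formed within a group, so a factor applied to a whole column does not alter it.

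Likeness of pattern was measured as the distance between log2 levels over the 4 groups, each gene centred on its own mean, among 32 candidates (the other members of the family and the genes of sugar transport, invertases and hexokinases listed below). *MST3* lay nearest to the sugar efflux gene *SWEET14*, at 1.07, and then to *MST4*, at 2.0. The nearest candidate to *MST4* was *MST3*, followed by *SWEET14* at 2.97. *MST6* was nearest to the cell wall invertase gene *CIN1*, at 1.39. *TMT1* lay nearest to *SWEET1a*, at 0.52, with *TMT2* next at 0.54, and *TMT2* nearest to *TMT1*. Of all 19,126 genes, 5 lay nearer to *MST4* than *MST3* did, whereas 569 lay nearer to *MST6* than *CIN1* did. For *MST3*, 12 genes lay nearer than *SWEET14* and 104 nearer than *MST4*. For *TMT1*, 266 lay nearer than *SWEET1a* and 305 nearer than *TMT2*, and for *TMT2*, 310 lay nearer than *TMT1*. With 4 points per gene, such distances are a description.

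Genes that handle sugar before and after hexose uptake were examined as lists. The other 16 sugar transport genes had been selected by the study for differing in these samples, so their direction is not independent evidence. Of the 16, 8 in Swarna had at least 2-fold more in NP and 5 at least 2-fold less, and in Pokkali 7 and 2, with 5 higher and 1 lower in both. Of the 19,126 genes, 26.6% were higher and 25.4% lower in Swarna, 15.9% and 14.8% in Pokkali, and 10.8% and 11.0% in both. The medians of the 16 on the log2 scale were 1.11 for Swarna and 0.77 for Pokkali. *SWEET14*, of the SWEET family of sugar efflux proteins, had 61.3 FPKM in Swarna NP and 0.609 in Swarna EP, and 4.01 in Pokkali NP and 0.262 in Pokkali EP. Like *MST3* and *MST4*, it was higher in NP in both cultivars, and the Swarna NP value was the highest.

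*SWEET13*, whose product carries sucrose, had 349 FPKM in Swarna NP and 19.4 in Swarna EP, and 50.5 in Pokkali NP and 26.3 in Pokkali EP. *SWEET16*, of a clade known from vacuolar membranes, had 223 FPKM in Swarna NP and 6.01 in Swarna EP, and 116 in Pokkali NP and 11.5 in Pokkali EP. On the log2 scale, *SWEET2b* was higher in NP by 3.62 (Swarna) and 2.15 (Pokkali), and *SWEET4*, a hexose transporter of grain filling, by 1.24 and 0.19. In the opposite direction, *SWEET11*, a sucrose transporter known from grain filling, had 0.235 FPKM in Swarna NP and 11.5 in Swarna EP, and 0.342 in Pokkali NP and 6.26 in Pokkali EP.

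Invertases split sucrose into glucose and fructose, the substrates of the MST and TMT proteins. Of 8 cell wall and 2 vacuolar invertase genes, 8 had a row of their own and 5 of these passed 1 FPKM. *CIN7* and *CIN8* had none, so the counts and medians leave them out. A row naming both was higher in NP in both cultivars, with 86.8 FPKM in Pokkali NP and 12.8 in Pokkali EP. Among the 8 with a row of their own, NP exceeded EP by 2-fold or more for 3 in Swarna and 2 in Pokkali. It was below EP by as much for 1 in Swarna and 2 in Pokkali. Among genes of at least 1 FPKM, 26.6% in Swarna and 15.9% in Pokkali were higher in NP, and 25.4% and 14.8% lower. The medians over the 8 were 0.53 in Swarna and 0.03 in Pokkali, and 1.66 and 0.90 over the 5 that passed. Those over the 5 are a description only, since the filter keeps genes that are high in 1 group. *INV2*, for one, passed only through Swarna NP, at 5.13 FPKM, and had 0.945 in Pokkali NP. The cell wall gene *CIN1* had 119 FPKM in Swarna NP and 8.88 in Swarna EP, and 25.4 in Pokkali NP and 6.48 in Pokkali EP. *CIN2*, known for its part in grain filling, was lower in NP, at −3.21 (Swarna) and −4.03 (Pokkali) on the log2 scale, and *CIN4* had 0.63 and 0.90. Of the vacuolar genes, *INV2* had ratios of 3.24 and 1.36 on that scale. *INV3* had 79.7 FPKM in Swarna NP and 24.9 in Swarna EP, and 15.1 in Pokkali NP and 51.7 in Pokkali EP, and so went in opposite directions in the cultivars.

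All 10 hexokinase genes had a row and 7 passed 1 FPKM. By the 2-fold limit, 2 of the 10 were higher and 3 lower in Swarna NP, and 1 was higher and 1 lower in Pokkali NP. The shares among genes of at least 1 FPKM were 26.6% and 25.4% in Swarna, and 15.9% and 14.8% in Pokkali. The medians of the 10 were −0.02 for Swarna and −0.0046 for Pokkali on the log2 scale, and −0.16 and −0.64 over the 7 that passed. Medians over the 7 are likewise a description only. *HXK6* enters these counts by a row near 0, while a row it shares with another locus had 15.6 FPKM in Swarna NP and 23.1 in Swarna EP, and 25.9 in Pokkali NP and 35.2 in Pokkali EP. Among rows naming 1 locus, the most abundant on average, *HXK8*, had 31.7 FPKM in Swarna NP and 10.9 in Swarna EP, and 22.2 in Pokkali NP and 12.9 in Pokkali EP. *HXK5*, of the glucose-sensing hexokinases of rice, had 0.35 (Swarna) and −0.64 (Pokkali) on that scale, and *HXK7* had 1.09 and 1.15. *HXK4*, of the plastid, was lower in NP, at −2.78 and −1.81, and *HXK2* had −1.20 and −0.79. No hexokinase gene with a row of its own exceeded 31.7 FPKM in any group.

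**Figure D5:**
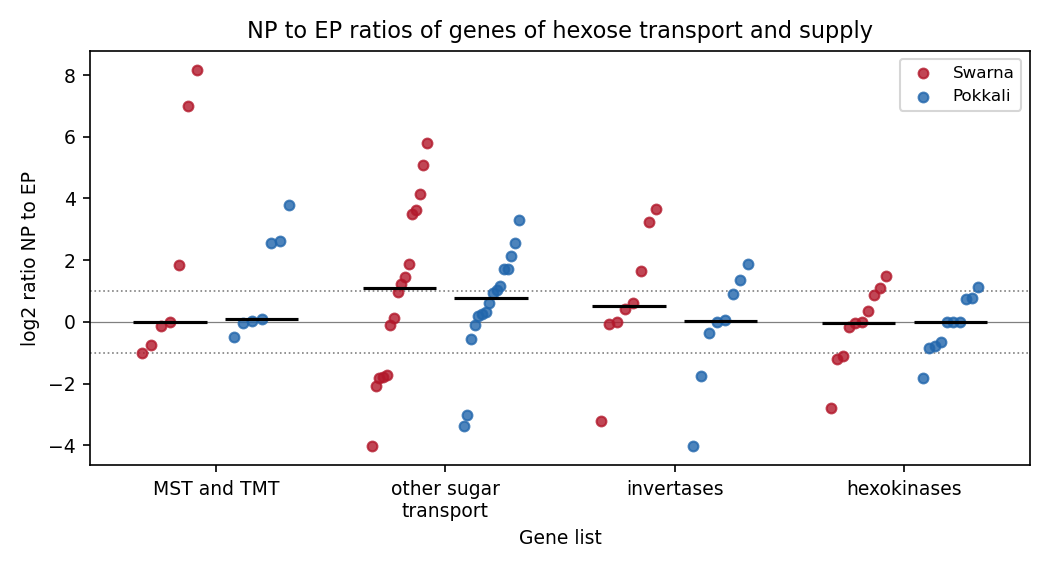
Log2 ratios of NP to EP for the genes of each list that have a row of their own, 1 point per gene, with Swarna left of Pokkali, black bars at the medians and dotted lines at 2-fold. *MST4* and *MST3* in Swarna (8.18 and 6.99) are the highest points of all 4 lists, and the hexokinases lie between −2.78 and 1.49.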

How the data were processed

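Per the labels and the study's methods, RNA of 12 peduncle samples was made into stranded total RNA libraries. Reads that passed the NGSQC Toolkit were mapped by the authors to the RGAP (Rice Genome Annotation Project) version 7 genome using HISAT2 2.1.0. StringTie 1.3.3b was used for assembly, Cuffmerge for merging and Cuffdiff for differential expression. The deposited values are FPKM, calculated by the authors with Cufflinks, 1 per assembled gene and group. How the 3 libraries of a group were combined, and how reads shared by similar genes were assigned, is not given in the sources used here. FPKM holds no read counts, so the depth behind a value is unknown and no interval can be given.

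Here, rows naming 1 locus were used (62,442 of 73,781 rows), the row of highest mean standing for a locus. Ratios were taken on log2(FPKM + 0.5), genes of at least 1 FPKM in at least 1 group were compared, and 2-fold was counted as a difference. Group columns were matched by name. Genes named are all 7 members, and of each list up to 4 genes of largest mean ratio and the 2 of highest level; *SWEET1a*, *TDR* and other markers appear as nearest patterns or controls. The 7 members and all lists were chosen with earlier results of these data known. Positions are spans of assembled loci, counted from 1. The code was tested on simulated data. Alternatives covered the constant, scaling, rows, fold and filter. Python 3.11.15, numpy 2.4.6, pandas 2.3.3 and matplotlib 3.10.9 were used.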

Additional observations from a re-analysis of the deposited data

How the results depend on the processing

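Without values per library, no error, test or leave-one-out value could be had. No paired analysis was possible because the columns hold 1 combined value per group and carry no replicate numbers. Quantile normalization gave no value for *MST5* and *MST8*, which are below the filter. Of 160 gene ratios under the alternatives, 148 kept their sign and their side of 2-fold, 7 dropped below 2-fold, 3 passed it and 2 changed sign while below it, both for *TMT1* in Pokkali. Part of the 148 was fixed in advance. *MST5* and *MST8* lie too near 0 to pass 2-fold, and summing the rows of a locus could change only *MST6*. This count is therefore no measure of how stable the ratios are. With a minimum of 1.5-fold, 5 in place of 3 of the genes differed between Swarna EP and Pokkali EP. The share of all genes past 1.5-fold was not computed, so nothing is read from this count. The log2 ratio of the summed level was 3.33 in Swarna (1.42 without *MST4*, 2.44 with equal column sums) and 0.51 in Pokkali (0.25 with equal column sums). Without the filter on low values, the share of all genes past 2-fold between NP and EP was 19.7% in place of 51.9% in Swarna and 11.6% in place of 30.7% in Pokkali. Between the cultivars it was 15.6% in place of 40.7% for NP and 6.84% in place of 17.4% for EP. With equal column sums, genes higher in Swarna made up 38.2% in place of 50.2% of those past 2-fold for NP and 68.8% in place of 43.0% for EP. The causes of these movements were not tested.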

Other observations

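The cell wall invertase genes *CIN7* and *CIN8* had no row of their own, and a row that names both had 46.0 FPKM in Swarna NP and 10.1 in Swarna EP, and 86.8 in Pokkali NP and 12.8 in Pokkali EP. Like *MST6*, it was higher in NP in both cultivars, but its Pokkali NP value was above that of Swarna NP.

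The neighbours assembled in the same spans as *MST4* and *MST3*, named here after their values were seen, were below 2-fold between NP and EP in their most abundant rows. LOC_Os03g11890, in the span of *MST4*, had 21.2 FPKM in Swarna NP and 13.4 in Swarna EP, and 9.32 in Pokkali NP and 13.0 in Pokkali EP. LOC_Os07g01550, in the span of *MST3*, had 18.8 FPKM in Swarna NP and 14.3 in Swarna EP, and 14.4 in Pokkali NP and 15.2 in Pokkali EP. Between the cultivars at NP, LOC_Os03g11890 passed 2-fold in the direction of *MST4*, with a log2 ratio of Swarna to Pokkali of 1.14. That of LOC_Os07g01550 was 0.38. The 2 further rows of *MST6* were below 1 FPKM in all groups.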
